A study of Drosophila melanogaster with 10 samples.

Results

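Drosomycin and its relatives are small secreted peptides rich in cysteine that Drosophila makes against fungi. The 6 family genes described here, Drs, dro2, dro3, dro4, dro5 and dro6, were taken by their symbols from the deposited FPKM tables, in which 13995 genes are listed. They were picked as a family whose FPKM differed among the genotypes. Their levels are therefore given as a description, and the later counts of members past a threshold are not read as a test. Of the 6 genes, 3 (Drs, dro2 and dro5) were above the lowest deposited value in at least 1 library, and 3 (dro3, dro4 and dro6) were in none. By their identifiers, the genes listed as dro2 to dro6 are now named Drsl2, Drsl3, Drsl4, Drsl5 and Drsl6. The genes are related in sequence, and how the authors' counting divided fragments that match several of them is not stated.

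Drosomycin itself is secreted mainly by the fat body, the insect counterpart of liver and adipose tissue. After fungal infection, recognition proteins set off serine proteases, which cleave the ligand Spätzle. The cleaved ligand activates the receptor Toll, which frees the NF-kB factors Dif and Dorsal from their inhibitor Cactus. In surface epithelia such as the trachea, the gene can instead depend on the Imd pathway and its NF-kB factor Relish, and the forkhead factor FOXO has been reported to drive antimicrobial peptide genes in flies without infection.

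RNA-seq libraries of total RNA came from whole male larvae of the third instar, raised at 25 °C, in 5 genotypes with 2 libraries each. The control carried y w. All 4 other genotypes carried y w with atf3[76], an allele of the gene for Activating transcription factor 3 (Atf3), which binds DNA through a leucine zipper. It was either the only further allele (written atf3[76] from here on) or was combined with 1 copy of dfoxo[25J13] (foxo/+), of rel[E20] (rel/+) or of atf3[A] (atf3[A]/+). The labels name no lesion for any allele and do not say what atf3[A] is. The transcript of w was at 33.7 and 26.3 FPKM in the atf3[A]/+ libraries and listed at 1 in the 8 others. The genotype names place dfoxo[25J13], rel[E20] and atf3[A] on chromosome 3, which also carries the family. An effect of an allele or element and one of the chromosome it came on cannot be told apart. The deposited Atf3 record lies on X, so the names do not place atf3[A] at that gene. The libraries of a genotype are called biological replicates, without a statement that they came from separate cultures. Per the series' design, each mutant genotype was measured relative to y w.

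The lowest deposited value was 1 FPKM (fragments scaled to transcript length and library size) in every library. A gene listed at 1 may be unexpressed, low or not estimated. Depth was uneven. On a relative scale, y w replicate 1 had 0.515, atf3[76] replicate 1 had 0.647 and 7 others had between 0.95 and 1.02. For foxo/+ replicate 2 the reading moved with gene length, from 0.427 to 0.560, so no depth is given for it. For atf3[76] replicate 1 it stayed between 0.643 and 0.650. Among genes whose median elsewhere reached 10 FPKM, the first replicates of y w and atf3[76] listed 3.84% and 4.54% at 1. The other libraries listed 0.136% to 1.27% of such genes at 1. The transcript of Atf3, listed as A3-3, was at 3.28 and 4.14 FPKM in the control libraries. It was at 6.09 and 13.7 FPKM with atf3[76] alone, at 13.1 and 13.5 in foxo/+, at 15.1 and 9.24 in rel/+ and at 9.51 and 12.8 in atf3[A]/+. Every mutant library was thus above both control libraries, so transcript level gives no check of a loss of Atf3. The transcript of foxo stood at 8.69 and 6.86 FPKM in foxo/+ against 4.30 and 8.73 in atf3[76], and that of Rel, which overlaps another gene, at 16.7 and 13.3 in rel/+ against 21.4 and 21.0.

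Drs (FBgn0010381, 3L:3369568-3369942 in BDGP R5/dm3, starts as deposited) encodes Drosomycin and was the most abundant member in every mutant library. The y w libraries had 2.66 FPKM in replicate 1 and a listing at 1 in replicate 2. Replicate 1 held 8 fragments of it, for an exact Poisson 95% interval of 1.15 to 5.24 FPKM that covers counting error only. In replicate 2, a value of 1 FPKM would have been worth 5.81 fragments. The control larvae therefore had little Drs transcript at this depth, and the value of replicate 2 cannot be placed below that of replicate 1.

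In atf3[76] the Drs level was 95.1 and 138 FPKM, a mean of 117 ± 30.5 (SD, n = 2). The genotype foxo/+ gave 114 and 19.4 FPKM, and rel/+ gave 260 and 168, a mean of 214 ± 64.5. The genotype atf3[A]/+ gave 186 and 77.6 FPKM, a mean of 132 ± 76.6. All 8 mutant libraries were above both control libraries. By level, Drs ranked between 204 and 470 among the genes in 7 mutant libraries, while foxo/+ replicate 2 had it at rank 2383. In y w its rank was 8399 in replicate 1. In replicate 2 it was listed at 1, so its rank of 10051 is a tie among the 3945 genes listed there at 1.

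The mean Drs levels were ordered rel/+, atf3[A]/+, atf3[76], foxo/+ and y w, from high to low. The libraries of each neighbouring pair of mutant genotypes in that order overlapped. Against y w, the difference on the log2(FPKM + 1) scale was 5.42 ± 0.51 (SE) for atf3[76] alone, 4.16 ± 1.32 for foxo/+, 6.28 ± 0.54 for rel/+ and 5.49 ± 0.76 for atf3[A]/+. These comparisons share the same control libraries. Against atf3[76], the difference was -1.26 ± 1.28 for foxo/+, 0.86 ± 0.41 for rel/+ and 0.07 ± 0.68 for atf3[A]/+. Both rel/+ libraries stood above both atf3[76] libraries, and the other 2 genotypes overlapped with atf3[76]. Leaving out foxo/+ replicate 2 moved the foxo/+ difference from atf3[76] to about 0 (-0.0096), and leaving out atf3[76] or atf3[A]/+ libraries in turn moved the atf3[A]/+ difference between -0.56 and 0.69.

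dro2 (FBgn0052279, 3L:3314348-3314682) lies at the other end of the family's region and encodes a Drosomycin-like peptide. Both control libraries listed it at 1, where 1 FPKM would have been worth 2.31 and 4.45 fragments. In atf3[76] it stood at 35.0 and 52.0 FPKM, a mean of 43.5 ± 11.97 (SD, n = 2). In atf3[A]/+ it stood at 28.4 and 25.0 FPKM, a mean of 26.7 ± 2.36. Both values were below both atf3[76] values.

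In rel/+, dro2 stood at 18.1 and 8.24 FPKM, a mean of 13.2 ± 6.98, which was below every atf3[76] and atf3[A]/+ library. In foxo/+ it stood at 3.62 FPKM in replicate 1, from 16 fragments with an interval of 2.07 to 5.89 FPKM, and was listed at 1 in replicate 2. The order of dro2 was therefore atf3[76], atf3[A]/+, rel/+ and then foxo/+, with no overlap between neighbours in that order down to foxo/+. The foxo/+ and y w libraries overlapped. Relative to atf3[76], the difference in log2(FPKM + 1) was -0.66 ± 0.29 in atf3[A]/+, -1.72 ± 0.59 in rel/+ and -3.84 ± 0.67 in foxo/+. Over every setting tried, the foxo/+ difference lay between -4.45 and -3.24, and the rel/+ difference between -2.24 and -1.19.

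**Figure D1:**
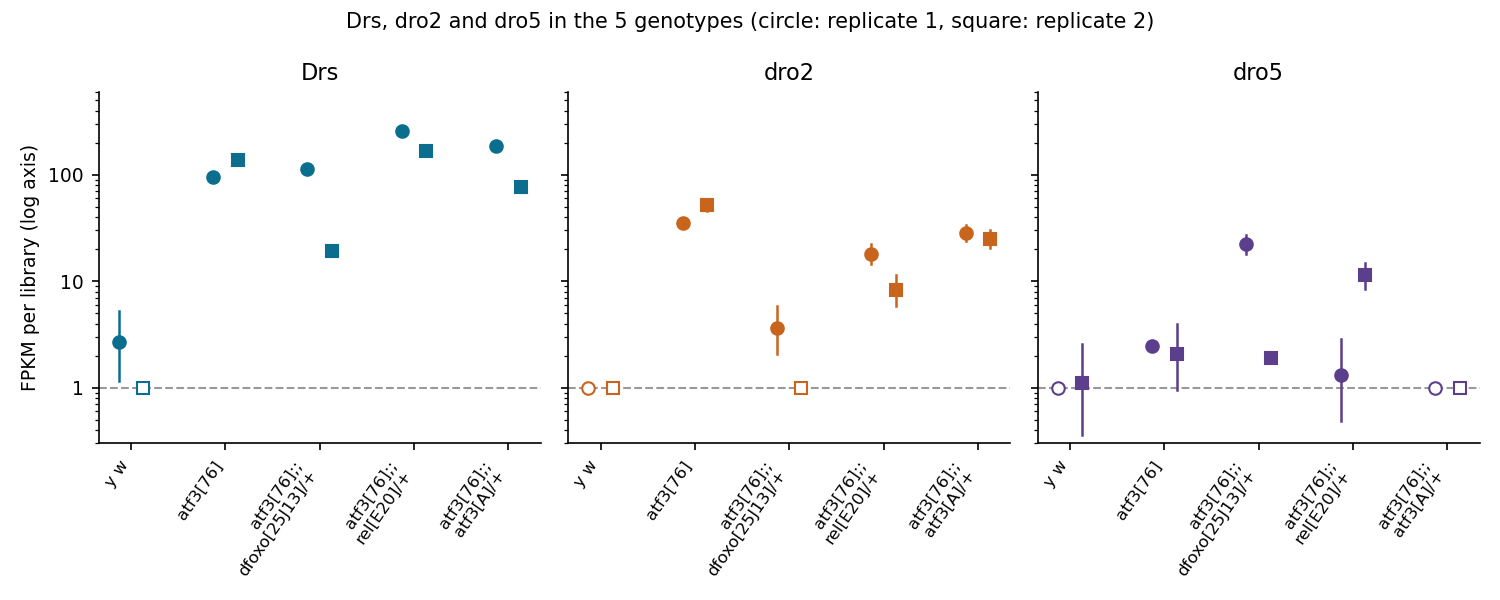
FPKM of Drs, dro2 and dro5 in each of the 10 libraries, on a log axis, by genotype. Vertical bars are exact Poisson 95% intervals where whole fragments were recovered, open symbols are libraries listed at 1, and the dashed line is that lowest deposited value. Drs is highest in rel/+ (260 and 168 FPKM), dro2 in atf3[76] (35.0 and 52.0), and dro5 in 1 library each of foxo/+ (22.3) and rel/+ (11.4).

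dro5 (FBgn0035434, 3L:3316808-3317144), a further Drosomycin-like gene, followed neither order. The controls had a listing at 1 and 1.11 FPKM, and the atf3[76] libraries had 2.49 and 2.09. In foxo/+ it stood at 22.3 FPKM in replicate 1, from 100 fragments with an interval of 18.2 to 27.1, and at 1.90 in replicate 2. In rel/+ it stood at 1.32 FPKM in replicate 1, from 6 fragments with an interval of 0.485 to 2.88. Replicate 2 of rel/+ gave 11.4 FPKM, from 52 fragments with an interval of 8.52 to 15.0. In atf3[A]/+ both libraries were listed at 1, below both atf3[76] libraries. The high and the low replicate differed 11.7 times in foxo/+ and 8.64 times in rel/+, so 1 library decided the level in both genotypes. In rel/+ the counting intervals of the replicates did not overlap. Leaving out a library moved the dro5 difference between foxo/+ and y w from 0.50 to 3.51 in log2(FPKM + 1), and that between rel/+ and y w from 0.18 to 2.60.

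dro3 (FBgn0052283, 3L:3314995-3315356), dro4 (FBgn0052282, 3L:3315636-3315944) and dro6 (FBgn0052268, 3L:3336031-3336418) were listed at 1 in all 10 libraries. So was Drs-l (FBgn0052274, 3L:3335578-3335788), a related gene beside dro6, now named Drsl1, which is not among the 6. None of these 4 genes was detectable above the lowest deposited value in any genotype. They are among 2437 of the 13995 genes that were listed at 1 in all 10 libraries.

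Counted against y w, the members past an adjusted p of 0.05 (limma, Benjamini-Hochberg over all genes tested) were 0 of 3 tested in atf3[76] and 0 of 3 in foxo/+. They were 1 of 3 in rel/+ (Drs) and 2 of 3 in atf3[A]/+ (Drs and dro2). Among all genes tested, 0.0364%, 0.204%, 0.537% and 0.37% passed in these 4 comparisons. At an unadjusted p under 0.05 in limma the members were 3, 1, 2 and 2, beside 3.56%, 18.1%, 25.4% and 7.7% of all genes tested. Because the family was picked on these values, the counts support nothing. With any 1 library left out, atf3[A]/+ against y w had 0 calls among all genes.

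With both mutant libraries above both y w libraries there were 3 members for atf3[76], 2 for foxo/+ (Drs and dro5), 3 for rel/+ and 2 for atf3[A]/+. The shares over all genes tested were 16.8%, 48.2%, 56.6% and 18.2%. No member had both libraries below both controls, as 5.73%, 9.3%, 8.72% and 17.6% of genes did. Against atf3[76], 0 of 3 members were called in foxo/+, rel/+ or atf3[A]/+, where 0.0519%, 0.0865% and 0.0779% of genes passed, and 1, 1 and 0 members had an unadjusted p under 0.05 in limma, beside 5.38%, 7.41% and 8.01% of all genes. Relative to atf3[76], dro2 was below in both libraries in all 3 genotypes, and dro5 in atf3[A]/+. The shares of all genes below were 6.5% for foxo/+, 5.55% for rel/+ and 23.9% for atf3[A]/+. Above atf3[76] in both libraries there was 1 member, Drs in rel/+, beside 44.5% of all genes there, 32.0% in foxo/+ and 8.88% in atf3[A]/+.

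The authors' deposited table carries a call for each record. It called Drs up in all 4 genotypes, with a fold change of 63.8 for atf3[76], 36.4 for foxo/+, 117 for rel/+ and 72.0 for atf3[A]/+. For dro2, the authors' deposited table gave up with 43.5 in atf3[76], 13.2 in rel/+ and 26.7 in atf3[A]/+, and a failed quality control with 2.31 in foxo/+. For dro5, the authors' deposited table gave up with 2.17 in atf3[76], a failed quality control with 11.5 in foxo/+ and 6.05 in rel/+, and no change in atf3[A]/+. In the authors' deposited table, 4.73%, 21.9%, 28.6% and 7.38% of records were called up in the same 4 genotypes. A fold against a gene listed at 1 in both y w libraries, as for dro2, is set by that lowest value.

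Within a library, depth scales all members alike, but it can decide whether a member near 1 FPKM is counted. In foxo/+ replicate 2 the scaling also moved with gene length. The proportions of the members in atf3[76] were nearly the same in both replicates. Of the summed FPKM of the members above the lowest value, Drs made up 71.7% and 71.9% there, dro2 26.4% and 27.0%, and dro5 1.88% and 1.08%. In atf3[A]/+, Drs made up 86.8% and 75.6% and dro2 the rest. In rel/+, Drs made up 93.0% and 89.5%, dro2 6.49% and 4.38%, and dro5 0.473% and 6.07%. In foxo/+ replicate 1 the shares were 81.5% Drs, 2.59% dro2 and 16.0% dro5. Replicate 2 had 91.1% Drs and 8.94% dro5, with dro2 listed at 1.

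The ratio of the Drs level to the dro2 level, both per length, was 2.71 and 2.66 in atf3[76]. It was 6.56 and 3.10 in atf3[A]/+, 14.3 and 20.4 in rel/+, and 31.4 in foxo/+ replicate 1. Every library of the other 3 genotypes with both genes above the lowest value had a higher ratio than both atf3[76] libraries. In rel/+ the higher ratio combined more Drs with less dro2, while in foxo/+ replicate 1 the Drs level (114 FPKM) lay between those of the atf3[76] libraries and dro2 (3.62 FPKM) was lower. In whole larvae, fewer cells expressing a gene and less RNA per cell cannot be told apart.

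**Figure D2:**
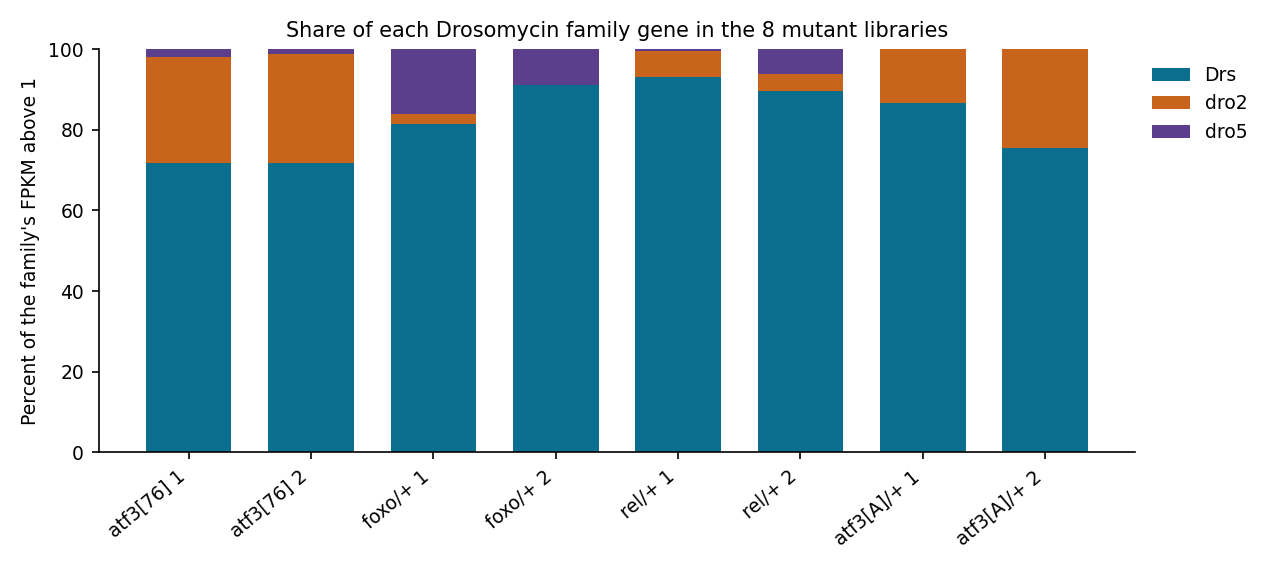
Share of the family's summed FPKM held by Drs, dro2 and dro5 in each mutant library, in percent, counting members above the lowest deposited value. Both atf3[76] libraries show the same split (71.7% and 71.9% Drs, 26.4% and 27.0% dro2), while dro2 is 6.49% and 4.38% in rel/+. The y w libraries, with 1 member each above the lowest value (2.66 and 1.11 FPKM), are not shown.

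The 6 genes lie within 55594 bp on 3L. dro2, dro3, dro4 and dro5 sit together within 2796 bp, dro6 lies 18887 bp beyond dro5, and Drs lies another 33150 bp on. Drs and dro2, the most abundant members, are thus at opposite ends. The region and the 10000 bp around each member hold 14 other gene records, and none of them overlaps a member. None of the neighbours tested was called by limma in any of the 4 comparisons with y w. They numbered 13 for atf3[76], 12 for foxo/+, 13 for rel/+ and 11 for atf3[A]/+, and 1, 2, 4 and 0 of them had an unadjusted p under 0.05, beside the 3.56%, 18.1%, 25.4% and 7.7% of all genes. Their median differences from y w in log2(FPKM + 1) were 0.14, 0.45, 0.48 and 0.46, against medians over all genes tested of 0.11, 0.32, 0.40 and 0.0052. The neighbours CG12016, CG42456, CG11526 and CG12010 were listed at 1 in the shallow y w replicate 1 and at 2.14 to 7.22 FPKM in replicate 2. Such a listing, which may mean that a gene was not estimated, enters these medians. dro3 and dro4, which were listed at 1, thus lie in the same 2796 bp as dro2, which reached 52.0 FPKM.

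**Figure D3:**
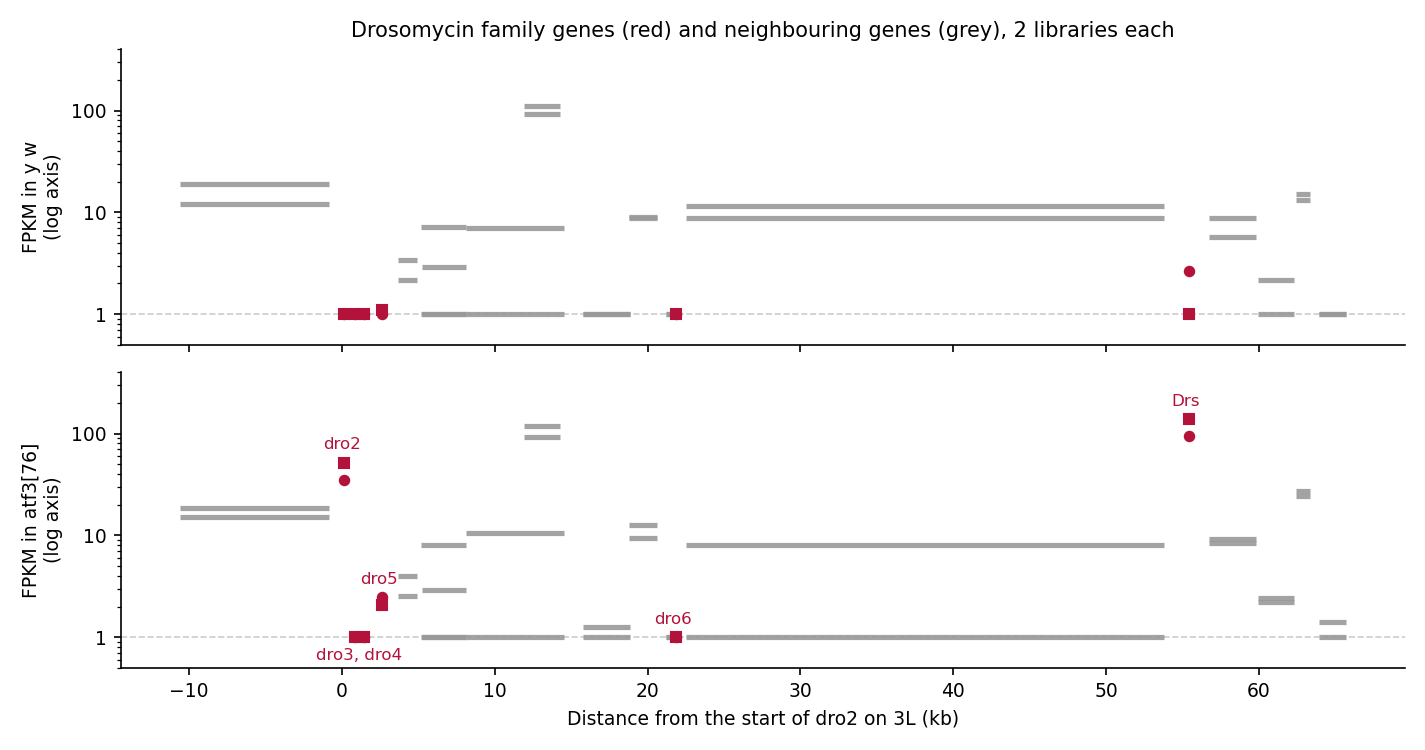
FPKM on a log axis of the family (red) and its neighbours (grey) along 3L, as distance in kb from the start of dro2, in y w (top) and atf3[76] (bottom). Circles are replicate 1 and squares replicate 2. In atf3[76], dro2 (35.0 and 52.0 FPKM) and Drs (95.1 and 138) stand up at opposite ends, while dro3, dro4 and dro6 stay at the lowest deposited value.

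Genes that act before or beside the family in the immune pathways were then counted against y w. Over all genes tested, 3.56% had an unadjusted p under 0.05 in atf3[76], 18.1% in the genotype with foxo/+, 25.4% with rel/+ and 7.7% with atf3[A]/+. The medians over all genes were 0.11, 0.32, 0.40 and 0.0052, beside which each list's counts and medians are to be read. Of the recognition proteins, proteases and ligand upstream of Toll, 13 of 15 listed genes were tested and 0 were called in any genotype against y w. At an unadjusted p under 0.05 in limma, 2, 2, 1 and 2 were higher and 0, 1, 0 and 2 lower, for atf3[76], foxo/+, rel/+ and atf3[A]/+ in that order. The list's median differences in log2(FPKM + 1) were 0.21, 0.13, 0.24 and -0.04, below those of all genes in foxo/+, rel/+ and atf3[A]/+. PGRP-SD, a recognition protein, measured 13.5 and 11.9 FPKM in the controls and 24.6 and 28.1 with atf3[76] alone. It reached 41.1 and 34.0 in atf3[A]/+, the highest pair. PGRP-SD overlaps another gene. GNBP3, a receptor for fungal glucans, measured 35.0 and 26.8 FPKM in the controls and between 26.5 and 34.4 in the mutants, so the groups overlapped. GNBP2, of the family that binds microbial glucans, had a listing at 1 and 1.76 FPKM in the controls, and 6.18 and 5.44 in rel/+. Its difference there of 1.53 ± 0.24 had an adjusted p of 0.136 in limma, and of 0.0465 when all 5 genotypes shared 1 model. The ligand gene spz was listed at 1 in y w replicate 1 and rel/+ replicate 1 and stood between 7.85 and 14.0 FPKM elsewhere.

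The 8 genes of the Toll receptor and its intracellular pathway were all tested and 0 were called. At an unadjusted p under 0.05 in limma, 0, 2, 4 and 2 were higher and 0 lower, with medians of 0.27, 0.43, 0.54 and 0.32, each above that of all genes. The transcript of dl, which encodes Dorsal, measured 11.3 and 9.496 FPKM in the controls, 15.8 and 16.2 with atf3[76] alone and 22.6 and 17.0 in foxo/+. That of Dif measured 5.30 and 5.18 FPKM in the controls and between 7.83 and 9.67 in the mutant libraries. The values of Dif and dl in all 8 mutant libraries lay above both control values, and neither gene passed the threshold. Taken 1 genotype at a time, 16.8%, 48.2%, 56.6% and 18.2% of all genes tested had both libraries above both controls. The share of genes above in all 8 libraries at once was not computed. cact, which encodes the inhibitor, measured 26.0 and 19.5 FPKM in the controls and between 19.4 and 27.0 in the mutants, so the groups overlapped. Dif and cact overlap other genes.

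All 19 genes of the Imd list were tested and 0 were called. At an unadjusted p under 0.05 in limma, 2, 6, 4 and 0 were higher and 0 lower, with medians of 0.27, 0.42, 0.48 and 0.069. PGRP-LC, the membrane receptor of the pathway, was listed at 1 in the shallow first replicates of y w and atf3[76], and stood between 9.07 and 17.8 FPKM elsewhere. key, which encodes a subunit of the kinase complex that activates Relish, measured 16.7 and 14.0 FPKM in the controls and between 14.9 and 27.2 in the mutants, and overlaps another gene. pirk, a negative regulator of the pathway, measured 9.28 and 14.9 FPKM in the controls and 11.8 and 14.1 with atf3[76] alone. It measured 22.3 and 30.5 FPKM in foxo/+ and 18.0 and 28.0 in rel/+, above both controls in each. Of the 7 JAK-STAT genes, 4, 3, 5 and 3 were tested and 0 called, with medians of 0.29, 0.73, 0.41 and 0.37. In that list 1, 1, 1 and 0 had an unadjusted p under 0.05 in limma. Socs36E, a target and inhibitor of this pathway, measured 4.05 and 2.70 FPKM in the controls and between 5.67 and 11.8 in the mutants. The list's os and Stat92E were listed at 1 in all 10 libraries. All 10 genes of the JNK and AP-1 list were tested and 0 were called, with 2, 4, 5 and 2 higher at an unadjusted p under 0.05 in limma and medians of 0.36, 0.53, 0.62 and 0.35. bsk, which encodes the JNK kinase, measured 13.2 and 19.7 FPKM in the controls and between 15.5 and 26.3 in the mutants, with overlap. Against atf3[76], 0 genes of these 5 lists were called by limma in the other 3 genotypes.

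Of 14 other antimicrobial peptide genes listed, 13 were tested and 0 were called by limma against y w in any genotype. Their median differences in log2(FPKM + 1) were 0.16 for atf3[76], 0.51 for foxo/+, 1.81 for rel/+ and 0.11 for atf3[A]/+. At an unadjusted p under 0.05 in limma, 4, 1, 1 and 3 were higher and 0, 0, 0 and 1 lower, and those higher were Attacin genes. AttA and AttB are near-identical copies, among which reads can be split uncertainly. Mtk, which encodes the antifungal peptide Metchnikowin, measured 4.70 and 8.51 FPKM in the controls and 2.60 and 8.06 with atf3[76] alone. Mtk thus overlapped the controls in the same libraries that held 95.1 and 138 FPKM of Drs. Dpt, which encodes the antibacterial peptide Diptericin, measured 9.23 and 2.79 FPKM in the controls and 5.94 and 9.69 with atf3[76] alone.

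The IM peptides, small immune-induced peptides of the hemolymph many of which depend on Toll, had the largest median differences among the 7 immune and stress lists. All 8 were tested, and the medians were 4.16, 2.51, 4.47 and 3.46. In limma, 0, 0, 0 and 3 passed the threshold, and 7, 8, 8 and 7 had an unadjusted p under 0.05, all higher. The 3 that rose past the threshold in atf3[A]/+ were IM3 (3.95 ± 0.40, adjusted p = 0.0421), IM4 (2.85 ± 0.27, adjusted p = 0.0327) and IM10 (3.44 ± 0.26, adjusted p = 0.0167). IM10 overlaps another gene. With all 5 genotypes in 1 model, 0 genes of the list passed in atf3[A]/+ and IM3 passed in rel/+ (limma, adjusted p = 0.0353). IM3 measured 5.18 and 2.09 FPKM in the controls and 100.04 and 177 with atf3[76] alone. It measured 68.2 and 29.0 FPKM in foxo/+, 503 and 116 in rel/+ and 70.5 and 62.9 in atf3[A]/+. As with Drs, every mutant library was above both controls. IM14, the most abundant of the list by mean, had 9.56 FPKM and a listing at 1 in the controls and between 38.2 and 872 in the mutants. Against atf3[76], 0 other antimicrobial and 0 IM genes were called by limma in any of the other 3 genotypes.

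The library rel/+ replicate 1 stood apart for immune peptides. It was the highest of the 10 libraries for 13 of 13 other antimicrobial peptide genes above the lowest value and for 8 of 8 IM genes, against 12.1% of all genes. Its log2 difference from rel/+ replicate 2 had a median of 3.09 over the antimicrobial genes, with a range of 0.75 to 4.18, and of -0.04 over all genes. Mtk, for example, stood at 102 FPKM in replicate 1 and 9.24 in replicate 2. Within the family the split differed by member. Drs and dro2 were also higher in replicate 1, by 260 against 168 FPKM and by 18.1 against 8.24, while dro5 was lower, by 1.32 against 11.4. Drs in rel/+ replicate 2, at 168 FPKM, was above both atf3[76] libraries. Of all genes tested, 44.5% had both rel/+ libraries above both atf3[76] libraries.

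In foxo/+, replicate 1 was above replicate 2 for 13 of 13 antimicrobial genes, with a median log2 difference of 1.38 against 0.14 over all genes. The IM peptides were above in 6 of 8 there, with a median of 0.30 and a low of -0.81. All 3 detected members were higher there too, by 1.21 to 3.01 on the log2 scale. Over all genes, 7904 of 11558 were higher in replicate 1 of foxo/+, beside which these counts are to be read. Mtk stood at 60.5 and 11.4 FPKM and Dpt at 66.1 and 6.23 in the same libraries. The part of these library differences in the family's group means was not tested.

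**Figure D4:**
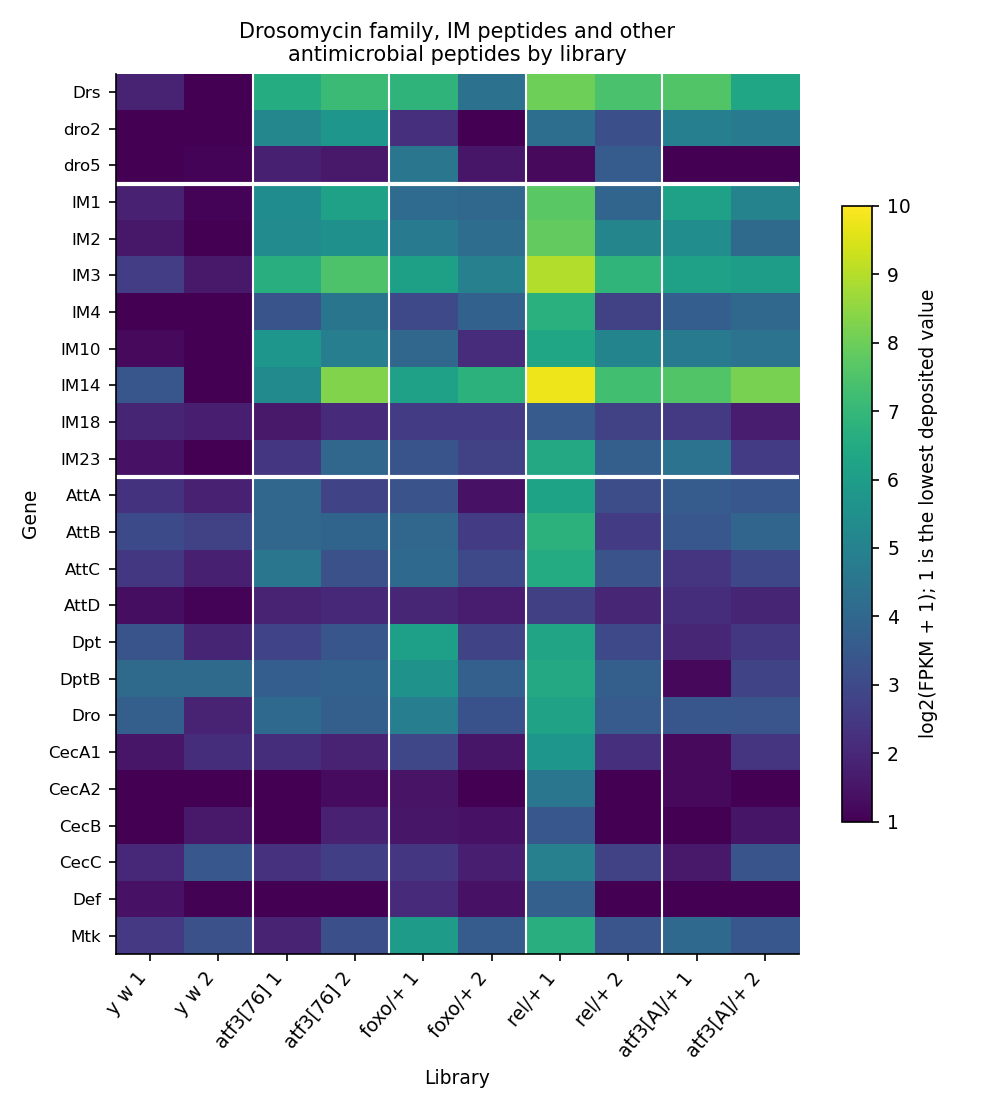
Level in log2(FPKM + 1) of the family, the IM peptides and the other antimicrobial peptide genes (rows) in the 10 libraries (columns). Drs and most IM peptides are above both y w values in all mutant libraries, some by little (IM10, 3.40 FPKM in foxo/+ replicate 2). The other antimicrobial genes are highest in rel/+ replicate 1, and some are also high in foxo/+ replicate 1 (Mtk, 102 and 60.5 FPKM). In atf3[76], 4 of these 13 had both libraries above both controls and 2 had both below, beside 16.8% and 5.73% of all genes tested.

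Markers of the tissues that can make the peptides were present in all libraries. The summed FPKM of the 7 fat body markers ran from 7083 to 12525 in the controls and from 5908 to 9496 in the mutants. The summed FPKM of the hemocyte markers was 92.7 to 118 in the controls, 89.3 to 125 with atf3[76] alone, 75.2 to 91.3 in foxo/+, 87.5 to 113 in rel/+ and 111 to 116 in atf3[A]/+. Of the 8 hemocyte markers, 7, 6, 7 and 7 were tested against y w and 0, 0, 1 and 1 were called. The called gene was Pxn, which encodes Peroxidasin and overlaps another gene (limma, adjusted p = 0.0234 in rel/+ and 0.023 in atf3[A]/+). Pxn was listed at 1 in both controls, both foxo/+ libraries and atf3[76] replicate 1. It was at 18.3 FPKM in atf3[76] replicate 2, at 14.5 and 18.9 in rel/+ and at 18.8 and 14.3 in atf3[A]/+. A listing at 1 may mean that Pxn was not estimated there, and its part in the family's levels was not tested. The summed FPKM of the 7 trachea markers was 116 to 140 in y w and 131 to 144 in the mutants, with dys and verm listed at 1 throughout. The fat body and trachea ranges overlapped between y w and the mutants. The hemocyte range of foxo/+ lay below that of y w, and the other hemocyte ranges overlapped with it. The markers of that sum did not move together. Of 7 above the lowest value somewhere, 3 had both foxo/+ libraries below both controls and 1 had both above. Over all genes these shares were 9.3% and 48.2%. Cg25C, the largest part of the sum, measured 49.9 and 32.6 FPKM in y w and 26.7 and 29.6 in foxo/+. vkg measured 34.3 and 19.4 FPKM in y w and 14.8 and 17.5 in foxo/+. He overlapped, at 8.01 and 17.1 FPKM in y w and 14.5 and 19.0 in foxo/+. The lower sum in foxo/+ is thus no measure of hemocyte number, which was not tested. The marker eater measured 3.73 and 4.61 FPKM in y w and 6.28 and 6.77 in foxo/+. The midgut sum was 4053 to 9933 in y w, 2905 to 10292 in atf3[76] and 3466 to 4411 in the others. All 8 midgut markers were tested against y w and 0 were called. At an unadjusted p under 0.05 in limma, 0, 0, 0 and 1 were higher and 2, 2, 2 and 1 lower. Over all genes tested, 3.56%, 18.1%, 25.4% and 7.7% passed in either direction. The salivary gland sum was 737 to 2552 in y w and reached 7508 in rel/+, and the part of these sums in the family's levels was not tested. The roX RNAs, which are made in males, summed to 30.0 and 47.6 FPKM in the controls and to 28.7 and 74.7 with atf3[76] alone. The sums were 72.2 to 87.8 in foxo/+, 84.7 to 88.1 in rel/+ and 65.0 to 92.2 in atf3[A]/+, above both controls, and were not tested for a part in the family's levels. The 3 yolk protein genes, which adult females express, were listed at 1 in all 10 libraries and do not bear on the sex of larvae.

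The genes most like Drs over the 10 libraries, by Pearson's r of log2(FPKM + 1) among 6004 genes, were CG16836 (0.974), CG9989 (0.966), IM3 (0.954), IM10 (0.938) and Kmn1 (0.936). CG16836 stood at 1 in both y w libraries and between 6.32 and 56.2 FPKM in the mutants. Over the 8 mutant libraries alone, among 5932 genes, they were CG34263 (0.947), CG16836 (0.919), CG5004 (0.914), Idgf3 (0.896) and RpS15Ab (0.895). CG16836 was the 1 gene named in both. Of these 9 genes, IM10, Kmn1, CG34263, CG5004 and RpS15Ab overlap another gene. Within the family, r between Drs and dro2 was 0.776 over 10 libraries and 0.603 over the 8 mutant libraries. Between Drs and dro5 it was 0.347 and 0.0927. These values describe libraries that share genotype and depth, and carry no test.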

How the data were processed

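RNA-seq of 10 libraries was analysed in 5 genotypes, grouped by label. The tools were TopHat 1.3.2 with Cufflinks 1.1.0 on build dm3, per the submitters' processing notes. No source used here states the annotation, strand or filters. The authors deposited 4 tables of 14148 records with FPKM values, each for 1 mutant genotype and y w, with a fold change and a call, which are a score and a label of the authors' own. Starts in the coordinates are as deposited and may be counted from 0.

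Of records sharing a symbol (94 symbols) the one with the highest mean was kept. Each mutant was set against y w in a model of that pair of groups, and against atf3[76] in 1 model of all 5 groups. Log2(FPKM + 1) values of genes exceeding 1 in any library entered limma 3.58.1 (R 4.3.3), with Benjamini-Hochberg adjustment and a threshold of 0.05. The log2 differences understate changes of low genes. P-values cover only the spread between these libraries, which may be technical. Genes overlapping another record are marked, since strand is not stated.

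Fragment counts were read from the FPKM step of genes of 137 bp with a tolerance of 0.03. For each member, a scaling was then sought that made its values whole, leaving out y w replicate 1, atf3[76] replicate 1 and foxo/+ replicate 2. With it, all 18 member values above 1 were whole in 8 libraries, most of them used in that search. The 5 in atf3[76] replicate 1 and foxo/+ replicate 2 did not. No pair of libraries shared more than 1 identical value above the lowest.

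The members and lists were chosen with earlier results of these data known. Named genes are the members, Atf3, foxo and Rel, list genes past the threshold or among the highest of their list, neighbours within 10000 bp, and the 5 genes most correlated with Drs with at least 10 FPKM in some library and above 1 in at least 5. Other genes named were chosen after their values were seen: PGRP-LC, spz, os, Stat92E, Dif and GNBP2. The fits were tested on simulated data. Alternatives were another pseudocount (0.1), no filter, quantile normalization, a variance trend, a replicate block, other sets of groups, and leaving out libraries (1 combination was added after seeing the data). Figures used matplotlib 3.10.9 in Python 3.11.15. The planned motif and protein comparisons were not run.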

Additional observations from a re-analysis of the deposited data

How the results depend on the processing

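No Drs, dro2 or dro5 difference larger than the spread between libraries changed sign under the alternatives run, while smaller ones did when a library was left out. Of 84 Drs differences recomputed, 5 moved by more than that spread. Against y w, the atf3[76] difference was 6.04 with a pseudocount of 0.1 and 6.12 without the first libraries of y w and atf3[76], and the rel/+ difference was 6.91 with a pseudocount of 0.1. Leaving out foxo/+ replicate 2 as well, chosen after seeing the data, gave 6.12 in atf3[76] and 5.84 in foxo/+. Of 166 differences for the other members, 20 moved. The number of genes past the threshold was unstable. Against y w it was 4 for atf3[76], 23 for foxo/+, 61 for rel/+ and 41 for atf3[A]/+, and against atf3[76] it was 6, 10 and 9 in foxo/+, rel/+ and atf3[A]/+. In atf3[76] against y w it was 0 with a pseudocount of 0.1, quantile normalization or a variance trend, 35 with all 5 groups in 1 model and 42 without the first libraries of y w and atf3[76]. In foxo/+ against y w those settings gave 40 with the pseudocount, 13 with the trend, 45 with all 5 groups and 36 without those libraries. With foxo/+ replicate 2 also left out, the counts were 9, 9, 1 and 1 against y w and 14 in foxo/+ against atf3[76]. Without a filter it was 120 in rel/+ and 16 in atf3[A]/+ against y w, and all 5 groups gave 26 in atf3[A]/+. Against atf3[76], foxo/+ had 11 with the pseudocount, 14 without a filter, 0 with those 2 groups alone and 23 without those first libraries. For rel/+ the last 3 settings gave 21, 16 and 20, and for atf3[A]/+ quantile normalization gave 16, those 2 groups alone 4 and leaving out those first libraries 22. The immune and stress genes called moved from 0 to 2 in rel/+ and from 3 to 0 in atf3[A]/+ with all 5 groups. Leaving out each replicate in turn gave 0 in atf3[76] and atf3[A]/+, 0 to 184 in foxo/+ and 0 to 236 in rel/+ against y w, with the highest counts without y w replicate 2. Against atf3[76] it gave 10 to 151 in foxo/+, 11 to 169 in rel/+ and 15 to 144 in atf3[A]/+, with the highest without atf3[76] replicate 2. Leaving out each replicate put the Drs difference from y w between 4.98 and 5.85 for atf3[76], 2.91 and 5.41 for foxo/+, 5.84 and 6.72 for rel/+ and 4.86 and 6.11 for atf3[A]/+. In limma fits with 0 calls, 293 to 4683 genes had an unadjusted p under 0.05. Where a genotype was left with 1 library, that library was assumed to vary like the others. The causes were not tested.

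The replicate numbers were checked for pairing. The deviations of same-numbered libraries correlated at 0.568, 0.331, -0.0506 and 0.259 against y w. Not every value was over 0.1 and the labels name no shared batch, so the numbers were not taken to pair the libraries, although 3 of the 4 were positive. A replicate block moved the count against y w from 4 to 34, 23 to 42, 61 to 170 and 41 to 0. No gene of atf3[A]/+, members and IM peptides included, was then past the threshold. Depth limits the low members most, since a level of 1 FPKM was worth 2.31 to 5.94 fragments.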
